A study of Rattus norvegicus with 4 samples.

Results

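Histones are the proteins around which DNA is wound in chromatin, and 31 rat histone genes are described here out of 16581 named genes measured on the arrays. They were taken by name: every probe whose RefSeq accession maps to a rat symbol of the H1, H2A, H2B, H3 or H4 gene families, 46 probes in all. The gene table holds 92 such symbols, and the other symbols are carried by no probe with a matching accession. Of the 31 genes, 23 are replication-dependent by name, since their symbols belong to the histone gene clusters, and are called clustered below. The other 8 are variant histones: H1f0, H1f7, H1f8, H2aj, H2ax, H2az1, H2az2 and H3f3b. One symbol went against its sequence. Hist1h2ail1 is an H2A gene by symbol, but its older name in the gene table is "H3 histone". From the first ATG after its start, 31 of 33 bases in the promoter table were those of the H3 gene Hist2h3c2, against 15 and 14 of 33 for the H2A genes H2ac25 and Hist1h2af. It is placed with H3 below.

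Clustered histone genes supply the bulk of new histones while DNA is copied, and their mRNAs peak in S phase. They have no introns, and their mRNAs usually end in a conserved stem-loop in place of a poly(A) tail. Variant histone genes are spread over the genome, are transcribed through the cell cycle and as a rule give polyadenylated mRNAs. The core histones H2A, H2B, H3 and H4 form the nucleosome, and the linker histone H1 binds the DNA where it enters and leaves.

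The samples are 4 biological replicates of NR8383, a macrophage line from rat lung lavage, cultured for 48 h and exposed for 4 h to 1.2 cm2/cm2 of NRCWE049, carbon nanotubes with amino groups. All 4 arrays are of exposed cells, and unexposed cells were not analysed here, so no value below is a response to the nanotubes. A level is the log2 Cy3 signal of a probe minus the 75th percentile of the probes detected on every array, and it serves to follow 1 probe between replicates. In signal units the 75th percentile was 1970, 1980, 2493 and 2402, going from replicate 1 to replicate 4. Detected means well above background on 4 of 4 arrays by the scanner software's flag. All 9 measured macrophage markers, including Csf1r and Cd68, were detected, as were 2 of 11 markers of other lung cell types (Pecam1 and Cdh5); Sftpc, Epcam and Col1a1 were well above background on no array.

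Promoters of 30 of the 31 genes were matched in a RefSeq table of the GRCr8 assembly, each from 250 bases before to 50 bases after the annotated start. In 3 of the 30 (H2bu1, Hist1h2af and Hist1h2bo) the annotated start is an ATG, so their positions are counted from it. The 6 below are shown up to the base before the start, because they hold the detected linker histones, a detected and an undetected H2B gene, and a variant H2A gene. Capitals mark CCAAT (the CCAAT box), TATAAA (the TATA box), ATTTGCAT (the octamer of H2B promoters) and AAACACA (the H1 box of linker histone promoters) on either strand. A match is one of letters only, and need not be a working element of that gene. The H1 box was added to the search after levels had been seen. None of these motifs overlaps another in the sequences shown.
H1f4, chr17:41914175-41914424, plus strand: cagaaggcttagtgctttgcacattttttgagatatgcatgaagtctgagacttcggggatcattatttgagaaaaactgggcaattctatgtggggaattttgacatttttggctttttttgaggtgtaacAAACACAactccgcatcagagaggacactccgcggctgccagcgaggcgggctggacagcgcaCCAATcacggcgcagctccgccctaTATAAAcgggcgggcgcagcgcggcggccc
H1f5, chr17:47421625-47421874, plus strand: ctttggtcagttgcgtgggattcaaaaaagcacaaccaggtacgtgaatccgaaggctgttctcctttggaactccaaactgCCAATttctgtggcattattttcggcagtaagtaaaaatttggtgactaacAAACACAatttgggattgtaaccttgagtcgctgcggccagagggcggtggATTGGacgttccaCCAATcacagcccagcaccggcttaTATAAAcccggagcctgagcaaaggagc
H1f0, chr7:112473030-112473279, plus strand: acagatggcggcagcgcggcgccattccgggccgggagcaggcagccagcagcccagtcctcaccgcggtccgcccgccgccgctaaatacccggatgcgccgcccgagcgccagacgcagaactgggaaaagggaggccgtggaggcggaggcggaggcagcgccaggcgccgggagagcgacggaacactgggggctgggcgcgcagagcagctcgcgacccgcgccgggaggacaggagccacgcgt
H2bc12, chr17:47181941-47182190, minus strand: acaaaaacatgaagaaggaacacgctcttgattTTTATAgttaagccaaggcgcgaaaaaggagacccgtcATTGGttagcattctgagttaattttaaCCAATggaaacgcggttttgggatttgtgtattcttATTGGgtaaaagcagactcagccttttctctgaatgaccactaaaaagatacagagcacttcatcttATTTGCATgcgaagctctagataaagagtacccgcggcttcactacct
H2bc1, chr17:41599662-41599911, plus strand: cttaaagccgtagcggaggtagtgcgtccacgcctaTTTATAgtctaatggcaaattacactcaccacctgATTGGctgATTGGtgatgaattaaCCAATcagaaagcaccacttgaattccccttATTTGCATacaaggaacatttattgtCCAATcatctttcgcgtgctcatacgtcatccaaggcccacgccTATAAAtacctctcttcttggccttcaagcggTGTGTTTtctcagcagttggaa
H2az1, chr2:229028845-229029094, plus strand: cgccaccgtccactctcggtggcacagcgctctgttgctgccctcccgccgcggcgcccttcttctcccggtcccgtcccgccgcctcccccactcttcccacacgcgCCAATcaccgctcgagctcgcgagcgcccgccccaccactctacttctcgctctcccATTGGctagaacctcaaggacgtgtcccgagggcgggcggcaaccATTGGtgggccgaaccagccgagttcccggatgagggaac

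H1f4 and H1f5 shared a layout. Their H1 boxes began at -118 and -117, counted in bases from the start, and their TATA boxes at -30 and -28. H1f6, the testis linker histone gene, had an H1 box at -103 and no exact TATAAA match. Its window holds TATATAA after the CCAAT at -54, which the search did not count. The promoter of H1f0 held none of the 4 motifs in its window. At least 1 CCAAT was found in 20 of 22 clustered and 6 of 8 variant promoters, against 37.5% of all 33469 promoters in the table. TATAAA was found in 13 of 22 clustered and 3 of 8 variant promoters (14.2% of all promoters), and AAACACA in 5 of 22 and 1 of 8 (6.99%). The TATAAA counts include matches on the strand opposite the gene (H2bc12 at -217, Hist1h2af at -232) and after the start (H3f4 at 32, H2az1 at 10). They are therefore not counts of TATA boxes. Overlapping windows, described below, count shared sites more than once. The AAACACA of H2ac1 and of H2bc1 is the same site, and neither is a linker histone gene. Neither H4 promoter in the table, of Hist1h4b and Hist1h4m, held any of the 4 motifs.

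The octamer was present in 8 of 22 clustered promoters and 1 of 8 variant promoters (H3f3b), against 1.78% of all promoters. Among clustered genes it was found in 2 of 14 detected members, Hist1h2af and H2bc12, and in 6 of 8 members that were not detected. These 6 are not independent, since the windows of H2ac1 and H2bc1 share 261 bases and those of H2ac25 and H2bu1 share 283 on opposite strands. GC content ran from 35.3% to 55.3% in clustered promoters (median 44.9%) and from 51.7% to 73% in variant promoters (median 57.5%), beside a median of 51.7% over all promoters. These matches describe the sequence windows only.

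**Figure D1:**
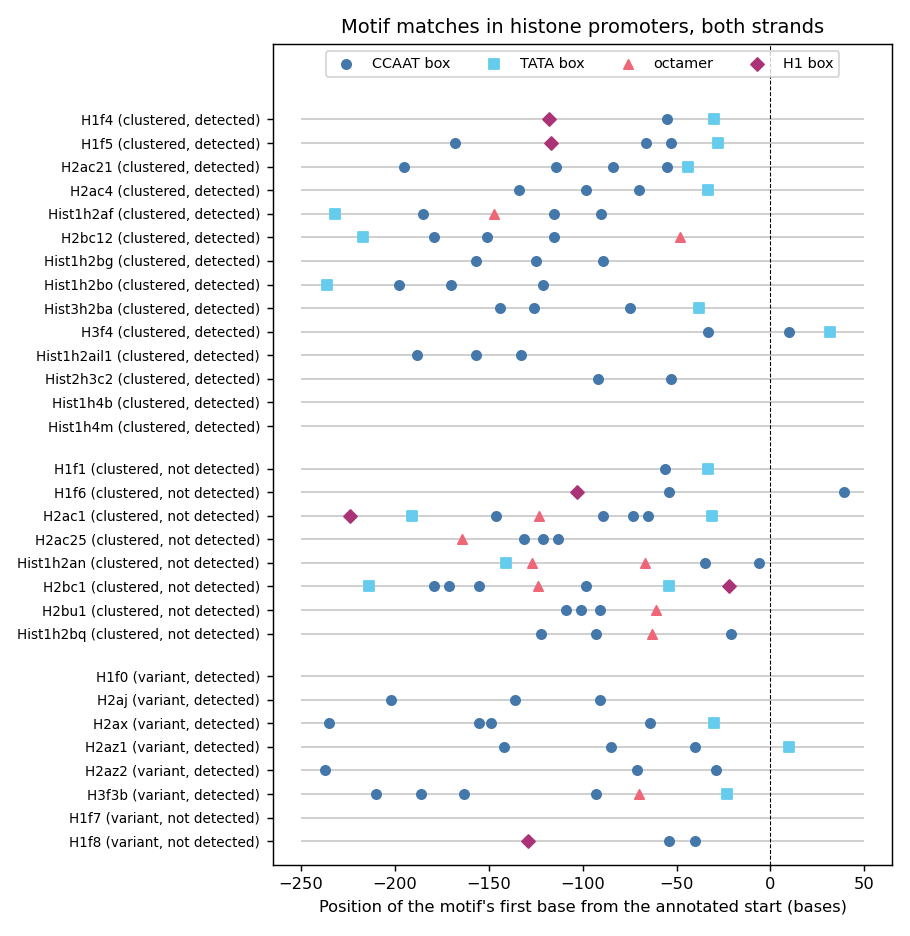
Positions of CCAAT, TATA, octamer and H1 box matches (first base, in bases from the annotated start) in the 30 histone promoters, grouped as clustered and detected, clustered and not detected, and variant. The H1 boxes of H1f4 and H1f5 line up at -118 and -117, and 6 of the 8 undetected clustered members carry an octamer. H2ac1 and H2bc1 share an octamer site in overlapping windows, as do H2ac25 and H2bu1.

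Most histone genes were detected in the exposed cells. Of the 31, 21 (67.7%) were well above background on all arrays, against 52.5% of all named genes; 9 were so on no array and 1 on part of the arrays. Clustered genes were detected in 15 of 23 cases and variants in 6 of 8. All 4 H3 genes and all 3 H4 genes were detected, as were 7 of 10 H2A, 4 of 7 H2B and 3 of 7 H1 genes. With Hist1h2ail1 placed by its symbol, the counts were 3 of 3 for H3 and 8 of 11 for H2A.

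The members that were not detected included those known from germ cells. H1f6, which encodes the testis linker histone, was well above background on no array, nor were H1f7, the linker histone of spermatids, H1f8, the linker histone of oocytes, and H2ac1 and H2bc1, the testis H2A and H2B genes. The others that were well above background on no array were H1f1, a somatic linker histone gene, Hist1h2an of the H2A family, and H2bu1 and Hist1h2bq of the H2B family. Missing this flag does not mean that a gene had no signal. With positive and significant signal on 4 of 4 arrays as the rule, 27 histone genes passed, 20 clustered and 7 variant. The share over all named genes was not computed under that rule. H2ac25, a clustered H2A gene, was at -6.12, -6.07, -6.69 and -7.23 in replicates 1 to 4. It missed detection only in replicate 4, where it was lowest, and it counted as detected when that array was left out. H3f4 was an exception to its namesake: the human gene of the older name is testis-specific, and here both probes of rat H3f4 were detected on every array.

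Chromosome 17 carries 16 of the 23 clustered members in 2 groups of neighbours split at their widest gap, a split made after detection had been seen. In the group from H2ac1 to Hist1h2bg, 4 of 10 members were detected (Hist1h2af, H1f4, Hist1h2ail1 and Hist1h2bg), beside 52.5% of all named genes. The testis genes H2ac1, H2bc1 and H1f6 are among its undetected members. In the group from Hist1h4b to H2ac4, 6 of 6 were. The 3 clustered members on chromosome 2 were all detected, and 2 of the 4 on chromosome 10. Clustered histone genes are close copies of each other, so a probe can take up RNA of several, and this sharing was not tested because probe sequences were not used here.

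**Figure D2:**
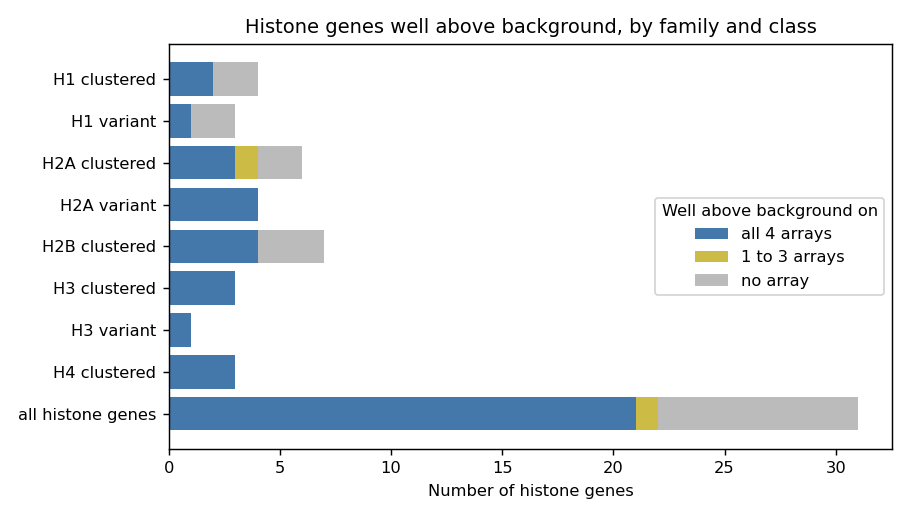
Number of histone genes by family and class (rows), split by whether their probe was well above background on all 4 arrays, on 1 to 3 arrays or on none. All H3, H4 and variant H2A genes were detected on every array, while H1 and H2B hold 7 of the 9 genes that were detected on none.

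H1f5 and H1f0 had the largest SD over replicates of the detected histone genes, 0.347 and 0.251. H1f0, the replacement linker histone of cells that leave the cell cycle, had levels of 2.14, 2.15, 2.55 and 2.61 in replicates 1 to 4. H1f4 stood at 2.70, 2.63, 2.96 and 3.05, and H1f5 at 1.79, 1.87, 2.22 and 2.54; both are clustered genes of somatic linker histones. In all 3 genes replicates 1 and 2 were low and replicates 3 and 4 high. The highest replicate exceeded the lowest by 1.39-fold for H1f0, 1.34-fold for H1f4 and 1.69-fold for H1f5. For H1f5 the log2 range was 0.75, and 0.43 without replicate 4. H1f0 rests on 10 spots per array, whose standard error was at most 0.0395, below its range of 0.47 over the arrays. H1f5 rests on 1 spot per array and has no such check.

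Clustered H2B genes had the same low and high arrays with a smaller range. H2bc12 was at 3.73, 3.62, 3.84 and 3.91, Hist1h2bg at 3.36, 3.25, 3.55 and 3.58, and Hist3h2ba at 2.85, 2.80, 3.09 and 3.06 in replicates 1 to 4. Replicate 2 was lowest in each, and the ratio of highest to lowest was 1.22, 1.25 and 1.23. The fourth detected H2B gene, Hist1h2bo, was at -2.78, -2.71, -2.60 and -2.77, with replicate 3 highest. Without replicate 2 the log2 range was 0.17 in place of 0.28 for H2bc12 and 0.21 in place of 0.32 for Hist1h2bg, and without replicate 3 that of Hist1h2bo was 0.07 in place of 0.18. A second probe of Hist1h2bg, at 1.90, 1.79, 2.13 and 2.21, ordered the arrays as the first one did.

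The 3 clustered H3 genes, which encode a core histone of the nucleosome, shared 1 order of the arrays. Hist1h2ail1 was at 4.44, 4.33, 4.63 and 4.81 in replicates 1 to 4, Hist2h3c2 at 4.95, 4.88, 5.02 and 5.12, and H3f4 at 4.10, 4.04, 4.20 and 4.28. Replicate 2 was lowest and replicate 4 highest in each, with a ratio of 1.40 for Hist1h2ail1 and 1.18 for each of the others. The log2 range of Hist1h2ail1 was 0.48, and 0.29 without replicate 4. That of Hist2h3c2 was 0.24, with 0.14 without replicate 4 and 0.50 under quantile normalization; H3f4 had 0.24, and 0.41 under that normalization. The other probe of H3f4 gave 4.10, 4.04, 4.21 and 4.24.

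The H4 genes had small ranges. H4c14 was at 2.94, 2.91, 3.00 and 3.03, Hist1h4b at 3.12, 3.05, 3.12 and 3.16, and Hist1h4m at 1.38, 1.34, 1.45 and 1.48. Their SD over replicates was 0.051, 0.048 and 0.064, while the median SD was 0.106 over named genes with a mean log2 signal of at least 12, a brightness these 3 share, and 0.151 over all detected named genes. Replicate 2 was again lowest and replicate 4 highest in all 3, except that replicate 1 was lowest for H4c14 under quantile normalization. There the log2 range was 0.19 in place of 0.11 for H4c14 and 0.20 in place of 0.12 for Hist1h4b. The range of Hist1h4b was 0.05 without replicate 2 and 0.07 without replicate 4; that of H4c14 was 0.08 without replicate 4. A second probe of H4c14, at 2.90, 2.91, 2.98 and 3.01, was also highest in replicate 4 but lowest in replicate 1. A dimmer second probe of Hist1h4b ran the other way, at -4.90, -5.16, -5.60 and -5.55, so the direction for Hist1h4b depends on the probe.

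The order of the arrays depended on the scaling in each of the 3 detected clustered H2A genes. H2ac4 was at 5.49, 5.41, 5.27 and 5.18 in replicates 1 to 4, highest in replicate 1 and lowest in replicate 4, and no spot was saturated. Under quantile normalization it was at 5.36, 5.31, 5.36 and 5.36, a range of 0.06 in place of 0.31. Hist1h2af, at 4.90, 4.78, 4.82 and 4.76, was also highest in replicate 1, but not under quantile normalization, and its range was 0.06 without replicate 1 in place of 0.14. H2ac21 was at -2.61, -2.66, -2.60 and -2.56, highest in replicate 4. Under quantile normalization it was at -2.56, -2.66, -2.59 and -2.58, highest in replicate 1. H2ac21 had an SD of 0.043, the lowest of all detected histone genes. Its range of 0.10 was 0.04 without replicate 2 and 0.06 without replicate 4.

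**Figure D3:**
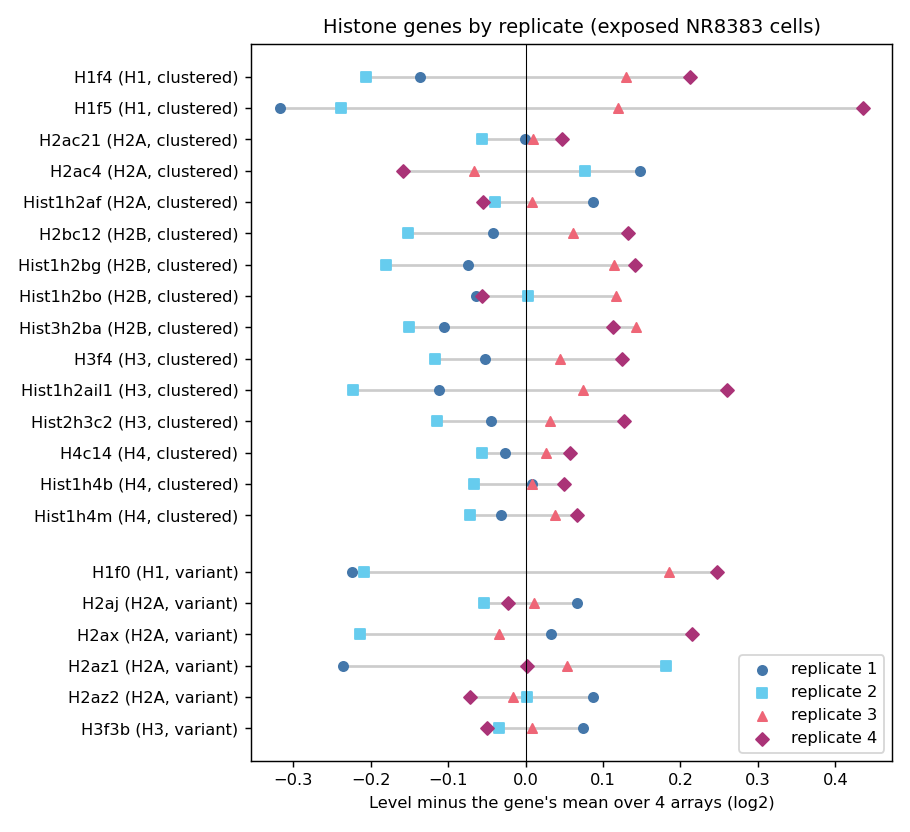
Level of each of the 21 detected histone genes in the 4 replicates, as the log2 difference from that gene's own mean, with clustered genes above and variants below. H1f4, H1f5 and H1f0 have replicates 1 and 2 on the left and replicates 3 and 4 on the right, the H4 genes span little, and H2ac4 runs the other way in this scaling, though not under quantile normalization.

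Variant core histones showed no common order of the arrays. H2ax, whose product is phosphorylated at DNA breaks, was at -1.27, -1.52, -1.34 and -1.09 in replicates 1 to 4, with replicate 2 lowest and replicate 4 highest. Its log2 range was 0.43, and 0.25 without replicate 2 or 0.24 without replicate 4. H2aj, a mammalian H2A variant, was at 5.40, 5.28, 5.34 and 5.31, and H3f3b, which encodes the replacement histone H3.3, at 3.01, 2.90, 2.95 and 2.89. Both spanned 1.09-fold and were highest in replicate 1, except that H2aj was highest in replicate 4 under quantile normalization, with a log2 range of 0.29 in place of 0.12. A second probe of H2aj, at 3.37, 3.13, 3.05 and 2.94, spanned 1.34-fold. Without replicate 1 the range was 0.06 for H2aj and 0.05 for H3f3b. H2az2, an H2A.Z gene, was also highest in replicate 1, with levels of 3.03, 2.94, 2.92 and 2.87. Its log2 range of 0.16 was 0.08 without replicate 1 and 0.05 under quantile normalization.

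The level of H2az1, the other H2A.Z gene, rested on 1 of 4 probes that went against the rest. Its brightest probe was at 3.94, 4.36, 4.23 and 4.18, lowest in replicate 1, whereas the other 3 probes were highest there. In replicate 1, 2 of the 10 spots of that probe were at 2.16 and 2.29, while the median spot was at 4.35, against median spots of 4.37, 4.23 and 4.18 in replicates 2 to 4. With the mean over all 4 probes H2az1 was at 3.67, 3.64, 3.60 and 3.56, a range of 0.11 in place of 0.42. That mean still includes the brightest probe, and the other 3 probes alone had ranges of 0.15, 0.33 and 0.24. Without replicate 1 the range of the brightest probe was 0.18. Among the 10 detected members with 10 spots, H2az1 was the exception: its range was 1.45 times the largest standard error over spots, and the others had a ratio of 3.66 or more.

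Across the 11 histone genes with several probes, probes disagreed on detection in 2, H2az2 and Hist3h2ba, against 22% of the 3658 named genes with several probes.

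**Figure D4:**
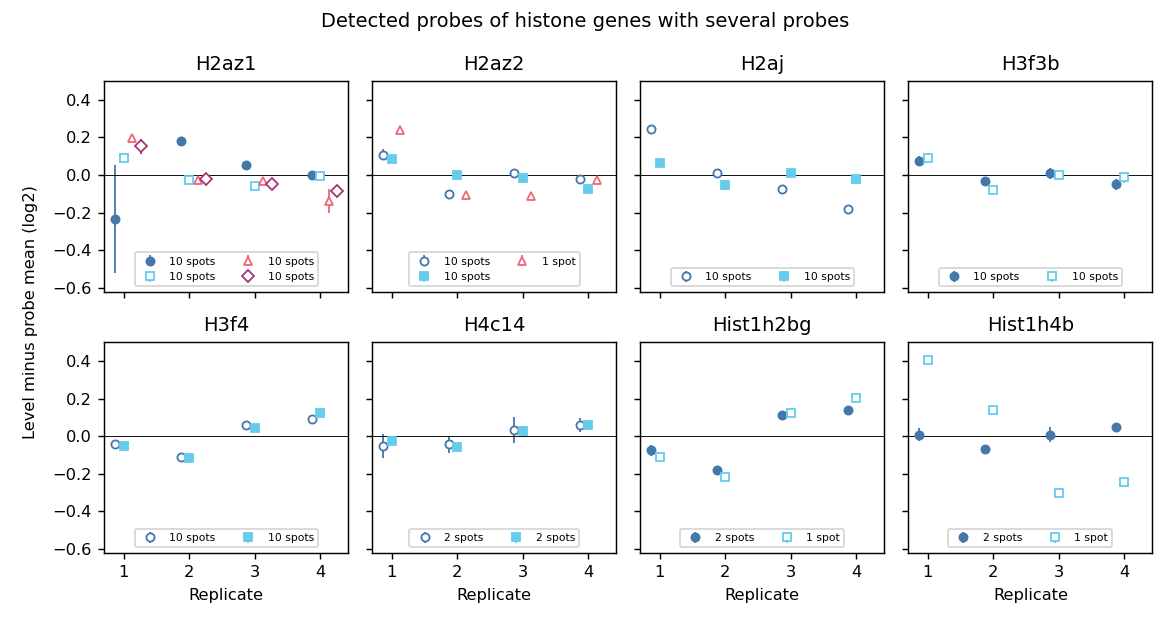
Detected probes of 8 histone genes with several probes, as log2 differences from each probe's mean in replicates 1 to 4; bars are standard errors over replicate spots (none for 1 spot), and filled symbols mark the probe used for the gene. The probes of H3f4, H4c14 and Hist1h2bg lie together, while H2az1 in replicate 1 and the dim probe of Hist1h4b stand apart.

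As a class, clustered histone genes were lower in replicates 1 and 2 and higher in replicates 3 and 4, by small amounts. Their mean deviation from each gene's own mean was -0.05, -0.11, 0.06 and 0.10 in replicates 1 to 4, a range of 0.21 over 15 genes. The range was 0.11 without replicate 4 and 0.31 under quantile normalization, where the deviations were -0.11, -0.14, 0.08 and 0.17. The 6 variants had mean deviations of -0.03, -0.05, 0.03 and 0.05, a range of 0.11, and of 0.21 under quantile normalization. Their median deviations were 0.05, -0.04, 0.01 and -0.01, so the order of the mean was not that of the median. H1f0, at -0.22 in replicate 1, and the H2az1 probe described above, at -0.24, were the variants lowest there, and 3 of the 6 variants were highest in replicate 1. No test compares the classes, because 4 replicates of 1 group hold no contrast.

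Replicate 4 was the highest array for 11 of the 15 clustered genes, against 24.7% of all detected named genes. Replicate 3 was highest for 2 (Hist1h2bo and Hist3h2ba), against 15.9%, replicate 1 for 2 (H2ac4 and Hist1h2af), against 34.6%, and replicate 2 for 0, against 24.8%. Replicate 2 was the lowest array for 11 of the 15, against 27.4%. Replicate 1 was lowest for 2 (H1f5 and Hist1h2bo), against 28.5%, replicate 4 for 2 (H2ac4 and Hist1h2af), against 23.7%, and replicate 3 for 0, against 20.4%. Many detected histone probes are bright, and 18 of the 21 had a mean log2 signal of at least 12. Among the 1855 named genes of that brightness, 40.8%, 28.2%, 15.3% and 15.6% were highest in replicates 1 to 4, and 22.4%, 23.1%, 14.2% and 40.3% were lowest there. These bright genes had mean deviations of 0.03, 0.02, -0.01 and -0.04 in replicates 1 to 4. The members share arrays and may share RNA, so the counts describe these 4 arrays.

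Variation between replicates was tested gene by gene against the variance of genes of like brightness. The F test on limma residual variances, adjusted by Benjamini-Hochberg over 8713 detected genes, called 0 histone genes and 1 gene in all (0.0115%). The lowest adjusted p of a histone gene was 0.969. H1f5, with an SD of 0.347, had this value, so a count of 0 does not show that levels were steady. At an unadjusted p under 0.05 there was 1 histone gene, H1f5, against 4.3% of all detected genes. That count was 6 under quantile normalization, 3 when scaled on bright genes, 2 without replicate 1 and 0 without replicate 4. The share over all detected genes was not computed under these other settings, so these counts have no background beside them. The median SD was 0.106 over clustered and 0.120 over variant genes, beside 0.106 over bright named genes and 0.151 over all detected genes; without replicate 1 the value for variants was 0.0665. No histone gene spanned more than 2-fold, where 2.66% of all detected and 0.377% of bright named genes did, so a count of 0 among 21 is near the background.

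Genes that make, carry and use histone mRNA and protein were mostly detected. Of 10 measured histone mRNA factors, 9 were detected, against 52.5% of all named genes. Slbp, the stem-loop binding protein of clustered histone mRNAs, was at 0.23, 0.16, -0.08 and 0.04 in replicates 1 to 4, and Lsm10, a U7 snRNP protein of histone mRNA processing, at -0.84, -1.19, -1.23 and -1.25. Both were highest in replicate 1. Npat, a coactivator of clustered histone genes at S phase entry, was the exception and was well above background on 2 arrays.

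Histone chaperones, which escort histones to and from DNA, were detected in 16 of 18 cases, against 52.5% of all named genes. Nasp, a chaperone of H3 and H4 that also binds H1, was at 0.28, 0.05, -0.01 and 0.00 in replicates 1 to 4. Asf1b, an H3-H4 chaperone of dividing cells, was at 0.17, -0.31, 0.03 and 0.13. Replicate 2 was lowest for Asf1b, as for most clustered histones, and not for Nasp. Asf1a was well above background on 1 array and Supt16h, a subunit of the FACT complex, on none.

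S phase genes were detected in 15 of 16 cases, against 52.5% of all named genes. Pola1, the catalytic subunit of DNA polymerase alpha, was well above background on 2 arrays. Pcna, the clamp of replicating polymerases, was at 1.78, 1.71, 1.64 and 1.65 in replicates 1 to 4, and Tyms, thymidylate synthase, at -1.64, -1.92, -1.82 and -1.79. Rrm2, a ribonucleotide reductase subunit, was at 3.40, 3.54, 3.66 and 3.64. Pcna and Tyms were highest in replicate 1, while Rrm2 was lowest there. The mean deviation over the list was 0.07, -0.06, -0.02 and 0.02, that of histone mRNA factors 0.10, -0.07, -0.07 and 0.04, and that of chaperones -0.07, 0.00, 0.02 and 0.05. Chaperones were lowest in replicate 1 and highest in replicate 4, close to the order of the clustered histones, while the other 2 lists were highest in replicate 1; differences between lists were not tested. None of their detected members was called by the F test on limma variances.

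**Figure D5:**
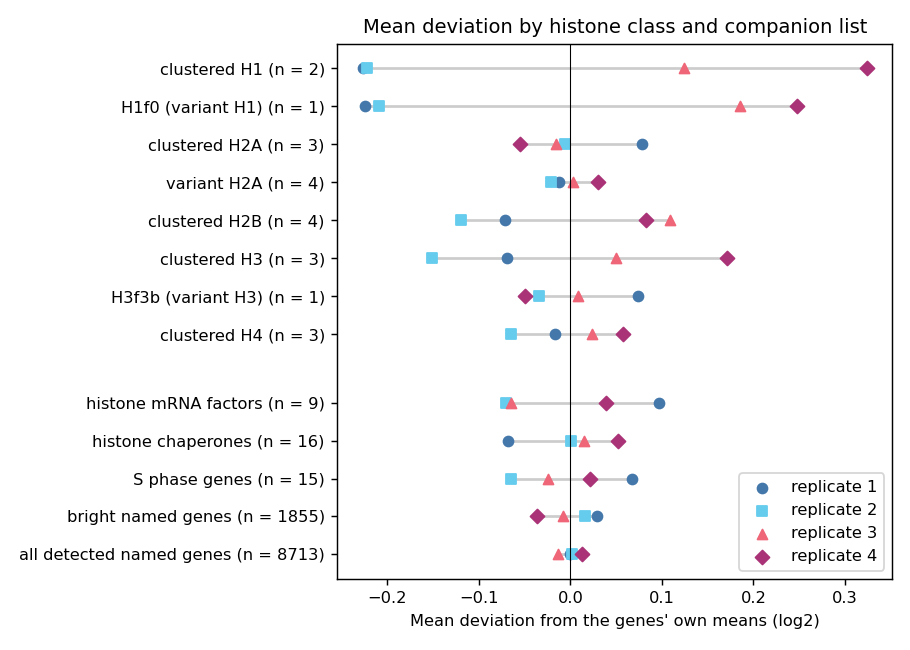
Mean log2 deviation from the genes' own means in each replicate for histone families and classes (top), and for companion lists and all named genes (bottom); n is the number of detected genes. Linker histones have the widest spread of the mean, and bright named genes are lowest in replicate 4. The mean of variant H2A spans only 0.05, though the median log2 range of its 4 genes is 0.29.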

How the data were processed

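Total RNA of 4 samples in 1 group was hybridised to one-colour Agilent rat arrays with a Cy3 label, per the labels' protocols. Per the file headers, the deposited intensity is the processed signal, corrected for background on each array; the submitters' processing notes name Agilent Feature Extraction 11.0.1.1. The primer of the labelling reaction and any scaling between arrays are not given in the sources used here.

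Control spots and spots flagged as outliers were left out, and replicate spots averaged on the log2 scale. Flags for signal well above background (other deposited columns, 0 or 1 per the file headers) gave detection; 39.3% of 45598 probes passed on all arrays, 19143 to 19311 per array, so their 75th percentile was used for scaling. Accessions matched 21109 probes to the RefSeq table. The brightest probe, detected ones first, gave a gene's level. The number of arrays limits the precision. Variances were tested with limma 3.58.1 in R 4.3.3, first tested on simulated data. Unaltered genes there all had the same SD, unlike real genes, so the simulation does not give the power in these data. Other work used the R package data.table (version 1.17.8), Python 3.11.15, pandas 2.3.3 and matplotlib 3.10.9.

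The members and lists were chosen with earlier results of these data known. All members are accounted for, and those with the largest and smallest SD of each family are named; of companion lists, the first 3 and the exceptions in detection. Alternatives were other detection rules, scalings, backgrounds, probe choices, flags, class borders, variance models and leaving out each replicate.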

Additional observations from a re-analysis of the deposited data

Results flagged for a closer look

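Dixon's ratio of gap to range was computed for 26 sets of 4 values, those of the 21 detected histone genes and of 5 list means. None passed the critical value, where chance gives about 1.3.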

How the results depend on the processing

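Of 96 values of the main results under alternatives, 7 moved. These results are counts, SDs and ranges, which have no direction. A count or median SD moved if it changed by over 1.5 times, and a range if it changed by the SD of its class mean over arrays or more. By this rule 20 clustered genes with positive and significant signal, against 15 detected, was no move. The 96 include the count of histone genes called, which was 0 throughout. Of 250 ranges of single histone genes, 29 moved by more than the SD between replicates, and 35, in 17 genes, changed by over 1.5 times. Quantile normalization gave a range of 0.314 for clustered and 0.209 for variant genes, and a median SD of 0.186 for clustered genes. The variant range was 0.182 with no filter on dim probes, and 0.170 when scaled on bright genes, a setting chosen after seeing the data. Leaving out each replicate gave 0.108 to 0.204 for the clustered range and 0.0665 to 0.146 for the variant median SD. The causes were not tested. No histone gene was called as variable under any of the 14 alternatives to the F test, where at most 9 genes in all were called. Moving testis members to the variant class, 1 of these, leaves that test unchanged and could not give another count. Naming by a gene symbol in the array files was not run, since the columns used here hold accessions only. No paired analysis was possible because there is 1 group.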

Other observations

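Histone variants outside the naming rule were detected in 2 of 5 measured cases, against 52.5% of all named genes. Macroh2a1, which encodes the macroH2A variant with a large non-histone domain, was at 1.27, 1.21, 1.22 and 1.40 in replicates 1 to 4. Cenpa, the centromeric H3 variant, was at -3.11, -2.01, -1.97 and -1.87. Replicate 1 was low and the other 3 lay together; it was not called by the F test on limma variances. Macroh2a2, H2ab3 and H2ap were well above background on no array.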
